A study of Mus musculus with 4 samples.

Results

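Fkbp5, Tsc22d3, Sgk1, Glul, Errfi1, Anxa1, Txnip and Ddit4 are genes that glucocorticoid hormones are known to induce in many tissues, and 7 of these 8 genes were lower in C2C12 cells given the compound labelled Bex than in cells without it. They were taken as all rows with exactly these symbols in the authors' deposited table of Bex against Ctrl. This gave 9 transcript clusters (Glul had 2) out of 559 rows in that table (1.57% of the 35557 clusters on the array). Of all clusters, 0.596% were in that table as lower and 0.976% as higher. The 8 genes were chosen with earlier results of these data known, so their count supports no direction. Among 13 other glucocorticoid-induced genes in that table, 5 were higher and 8 lower. C2C12 is an established line of mouse muscle precursor cells, which form multinucleate myotubes under suitable conditions. Both groups were grown to confluence and then kept for 48 h in a basal adipogenesis medium: the Bex10 group (2 arrays) with 10 µM of Bex added to it, and the Ctrl group (2 arrays) in that medium alone. The labels do not spell Bex out; as known from the study it is bexarotene, which activates retinoid X receptors (RXRs), the shared dimer partners of several other nuclear receptors. The labels do not list what the basal medium holds, so whether it carried a glucocorticoid on either side is not known here. The headers of the authors' deposited table name the groups CK+Bex and CK, taken here as Bex10 and Ctrl. Those headers do not say what CK stands for. The labels speak of 2 batches of cells without tying an array to either, so the spread between arrays may be partly technical. Values are the authors' RMA values on a log2 scale, where a difference of 1 means a ratio of 2.

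Glucocorticoids act through the glucocorticoid receptor, which waits in the cytoplasm bound to heat shock protein chaperones, moves to the nucleus on binding hormone, and attaches to DNA as a dimer at a palindrome of short half-sites. Its induced genes include brakes on its own action, on inflammation, on growth factor signalling and on protein synthesis. In skeletal muscle the hormone is best known for driving atrophy and the release of glutamine, and in fat cell precursors it is a standard part of many differentiation cocktails.

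The members were selected on this contrast: their rows are in the table because the authors' own fold change was at least 1.5 and its p-value was under 0.05. In the authors' deposited table the size of their fold changes ran between 1.59 and 2.44, their unadjusted p-values between 0.002481 and 0.044516, and their FDR p-values between 0.3036 and 0.4493. Their values are therefore given as a description, without a test, and support no direction. Just inside the cutoff was Sgk1, at 1.59-fold lower in the authors' deposited table, followed by Txnip at 1.62-fold lower. Clusters outside that table carry no gene name here, so no gene just outside the cutoff can be given. Over all 35557 clusters limma, a linear model with a shared estimate of variance, called 0% at an adjusted p of 0.05 (0 clusters, 4189 at an unadjusted p under 0.05), and 1.20% when its prior variance was tied to expression level, the variance trend (427 clusters). All 36 values of the 9 clusters, which spanned 7.86 to 12.16, lay above 4.57, the level under which the lowest 30% of clusters by mean lay.

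The start regions of the genes were read from the RefSeq table of build GRCm38.p6, which holds 16 windows for the 8 genes, each with 250 bases before and 50 after an annotated start. Of these, 6 belong to Sgk1, 3 to Tsc22d3 and 2 to Errfi1. The glucocorticoid receptor palindrome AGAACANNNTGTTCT, searched on both strands, was present in 1 of the 16 windows, at Sgk1, against 3 of all 32851 windows in the table (0.00913%). Its half-site TGTTCT, which the palindrome contains, was present in 4 of the 16 windows, from Sgk1 and Tsc22d3, against 19.0% of all windows. The stretches shown are the Sgk1 window with the palindrome in capitals and a Tsc22d3 window with its half-site in capitals. Of the 3 Tsc22d3 windows only this one, at the gene's outermost start, held TGTTCT. For contrast, Fkbp5 is shown, whose window lacks TGTTCT and has the E-box CACGTG in capitals. Ddit4, the gene that differed in the other direction, is shown with no capitals because none of the searched motifs was found.
Sgk1, chr10:21993640-21993889, plus strand: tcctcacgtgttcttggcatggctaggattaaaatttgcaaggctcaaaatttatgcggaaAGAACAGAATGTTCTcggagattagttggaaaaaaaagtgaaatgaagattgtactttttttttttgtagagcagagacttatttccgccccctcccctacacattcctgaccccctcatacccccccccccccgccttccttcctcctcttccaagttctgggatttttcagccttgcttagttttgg
Tsc22d3, chrX:140600523-140600772, minus strand: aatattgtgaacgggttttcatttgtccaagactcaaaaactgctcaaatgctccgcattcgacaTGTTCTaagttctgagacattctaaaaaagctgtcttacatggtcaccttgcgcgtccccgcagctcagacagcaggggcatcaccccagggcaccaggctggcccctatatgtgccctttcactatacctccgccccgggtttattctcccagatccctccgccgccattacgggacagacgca
Fkbp5, chr17:28486150-28486399, minus strand: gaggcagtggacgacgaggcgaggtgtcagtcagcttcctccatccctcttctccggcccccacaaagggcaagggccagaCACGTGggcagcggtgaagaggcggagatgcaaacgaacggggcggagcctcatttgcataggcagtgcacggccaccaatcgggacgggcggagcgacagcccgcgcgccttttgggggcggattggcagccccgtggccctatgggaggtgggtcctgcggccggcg
Ddit4, chr10:59951771-59952020, minus strand: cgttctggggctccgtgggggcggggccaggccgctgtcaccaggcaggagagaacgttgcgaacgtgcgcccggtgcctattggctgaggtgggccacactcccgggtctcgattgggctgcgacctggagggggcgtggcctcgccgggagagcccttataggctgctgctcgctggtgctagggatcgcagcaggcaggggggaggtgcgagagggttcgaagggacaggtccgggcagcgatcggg
Each line gives the 250 bases before the start, 5′ to 3′ along the gene. In the Sgk1 line the palindrome begins 189 bases before the start, and a further TGTTCT near the left end overlaps an E-box. The nuclear receptor half-site AGGTCA was present in 4 of the 16 windows, from Errfi1, Glul and Sgk1, against 16.3% of all windows. Direct repeats of it spaced by 1, 2, 4 or 5 bases are among the arrangements that RXR pairs are known to bind. They were present in 0 of the 16 windows and in 0.00913% to 0.0396% of all windows. Other spacings were not searched. The E-box was present in 2 of the 16, from Fkbp5 and Sgk1, against 7.15% of all windows. These matches describe letters in a short window and do not show that a factor binds there.

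A pair of the proteins acts close to the receptor itself. Fkbp5 encodes FKBP51, a co-chaperone that lowers the receptor's affinity for hormone and so closes a feedback loop. Its values were 8.08 and 7.86 on the Bex10 arrays, against 9.01 and 9.03 on the Ctrl arrays. Both Bex10 arrays lay below both Ctrl arrays, and the mean was 2.08-fold lower with Bex (log2 difference −1.06 ± 0.11, limma SE, n = 2 per group). Tsc22d3 encodes GILZ, a leucine zipper protein that restrains the inflammatory factors NF-κB and AP-1. It stood at 9.78 and 9.89 on the Bex10 arrays, against 10.76 and 10.65 on the Ctrl arrays. The groups were again apart, at 1.82-fold lower with Bex (−0.87 ± 0.09). The Ctrl arrays of Fkbp5 differed by 0.024 and its Bex10 arrays by 0.22, a within-group gap larger than in 80.1% of the 1000 clusters nearest in mean level.

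Sgk1 encodes a kinase that serum and glucocorticoids induce and that regulates ion channels and transporters. Its values were 8.09 and 8.26 on the Bex10 arrays, against 8.94 and 8.76 on the Ctrl arrays. The groups did not overlap, but it had the narrowest gap of the 9 clusters, 0.51 between the nearest arrays of the 2 groups. Its mean was 1.60-fold lower with Bex (−0.68 ± 0.12). Anxa1 encodes annexin A1, a phospholipid-binding protein that dampens inflammation. It measured 10.22 and 10.21 on the Bex10 arrays, against 10.89 and 10.94 on the Ctrl arrays, or 1.62-fold lower with Bex (−0.70 ± 0.08). Its Bex10 arrays were the closest pair among the 9 clusters, 0.015 apart, a smaller gap than in most clusters of like level (8.5% of the 1000 nearest had a smaller one).

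Glul encodes glutamine synthetase, which makes glutamine from glutamate and ammonia. Its brighter cluster, 10350753, read 11.27 and 11.39 on the Bex10 arrays, against 12.16 and 12.04 on the Ctrl arrays. Both Bex10 arrays were lower, and the mean was 1.71-fold lower with Bex (−0.77 ± 0.10). The second cluster with that symbol, 10374453, read 10.40 and 10.14 on the Bex10 arrays, against 11.21 and 11.05 on the Ctrl arrays, 1.82-fold lower (−0.86 ± 0.13). Both clusters thus had the same direction. The sources used here do not say whether the second one measures the gene itself or a near-identical copy, so they are counted as 1 gene and the brighter one represents it. The second cluster also had the widest gap between Bex10 arrays among the 9, 0.27, wider than in 93.4% of clusters of like level.

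Errfi1 and Txnip encode brakes on growth factor signalling and on glucose and redox metabolism. Errfi1, also called Mig6, binds and inhibits receptors of the EGF receptor family, and it had the greatest size of difference among the 8 genes. It read 9.69 and 9.59 on the Bex10 arrays, against 10.97 and 10.86 on the Ctrl arrays. This placed it 2.42-fold lower with Bex (−1.27 ± 0.09), with 1.17 between the nearest arrays of the 2 groups, the widest such gap of the 9 clusters. Txnip binds thioredoxin and limits glucose uptake. It read 10.80 and 10.74 on the Bex10 arrays, against 11.49 and 11.40 on the Ctrl arrays, 1.59-fold lower with Bex (−0.67 ± 0.08). It had the smallest size of difference among the 8 genes, with groups that still did not overlap.

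Ddit4 was the exception in direction. It encodes REDD1, an inhibitor of the growth kinase complex mTORC1 that glucocorticoids, hypoxia and amino acid stress can all induce. Its values were 10.35 and 10.22 on the Bex10 arrays, against 9.33 and 9.42 on the Ctrl arrays. Both Bex10 arrays lay above both Ctrl arrays, at 1.88-fold higher with Bex (0.91 ± 0.10). The averages in the authors' deposited table, 10.39 for Bex and 9.57 for Ctrl, give a smaller difference of 0.82. Its replicate arrays differed by 0.13 in Bex10 and by 0.10 in Ctrl. Each of these averages lies above both arrays of its group, so they are not averages of the array values used here. Those of Anxa1, 10.14 for Bex and 10.85 for Ctrl, lie below both arrays of their group.

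**Figure D1:**
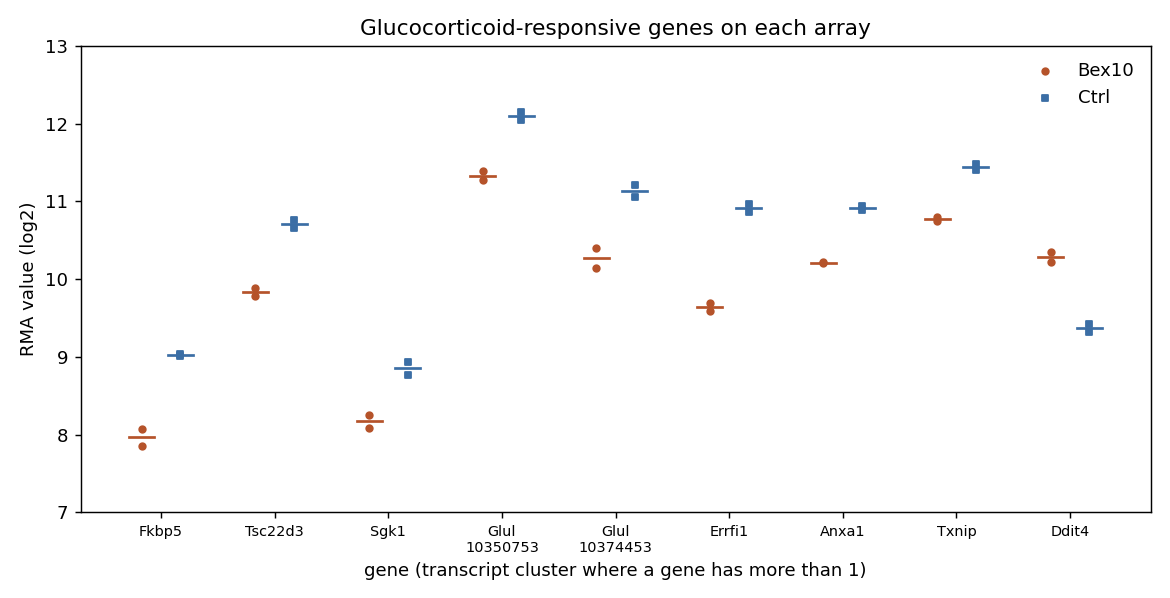
RMA value (log2, vertical axis) of the 9 transcript clusters of the 8 genes on each array, with circles for Bex10, squares for Ctrl and a bar at each group's mean (n = 2 per group). The Bex10 arrays lie below the Ctrl arrays for every cluster but Ddit4, where they lie above, and the groups of no cluster overlap.

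Across the 8 genes the median log2 difference was −0.74, beside −0.012 over all clusters, and the median of the 7 lower genes was −0.77, or 1.71-fold lower. The groups did not overlap for any of the 8 genes. This was also true of 44.7% of all clusters (24.2% with Bex10 below Ctrl and 20.6% with Bex10 above), and the rule chose the members on this contrast, so nothing is read from it. Of all clusters 0.596% were in the authors' deposited table as lower and 0.976% as higher, while 2.82% were lower and 3.62% higher by 1.5-fold or more in the value table. In the same-numbered arrays, 7 of the 8 genes differed by 1.5-fold or more in both pairs, against 1.20% of all clusters that did so as lower and 1.71% as higher. The exception was Sgk1, with −0.85 between the arrays numbered 1 and −0.51 between those numbered 2. The selection of the genes favours such a count, and the numbers were not taken as pairs, so nothing is read from it. Errfi1 differed almost equally in both pairs, by −1.28 and −1.27, and Txnip by −0.68 and −0.66. The size of the difference was smaller in the pair numbered 2 for 6 of the 9 clusters, with Fkbp5, Anxa1 and the second Glul cluster as the exceptions.

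**Figure D2:**
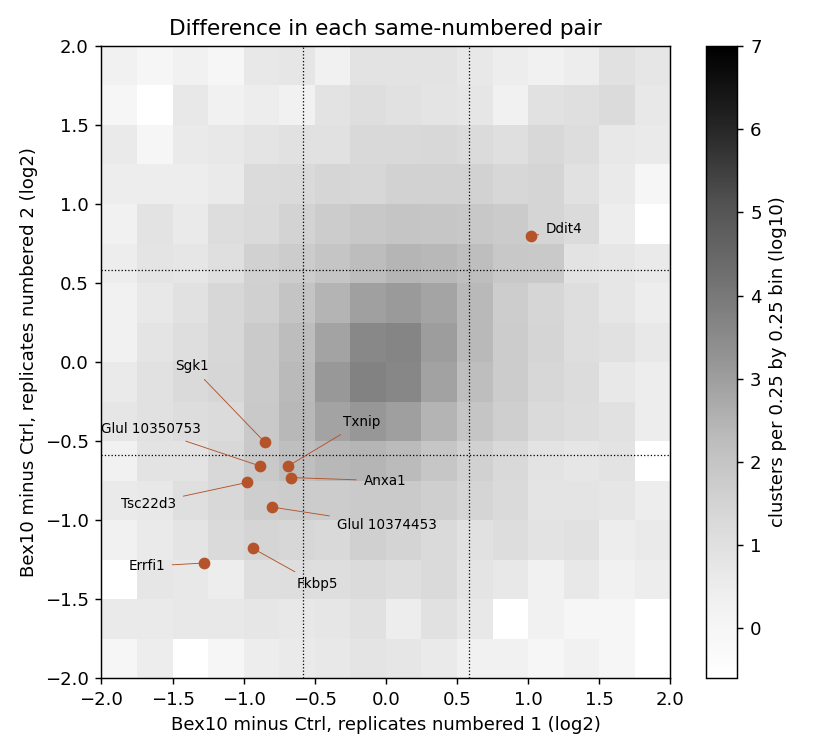
Bex10 minus Ctrl (log2) between the arrays numbered 1 (horizontal axis) and between those numbered 2 (vertical axis), with the 9 clusters as points over a grey density of all clusters within the axes; dotted lines mark 1.5-fold. Errfi1 lies farthest out on the lower side, Sgk1 lies inside the dotted line for the second pair at −0.51, and Ddit4 stands alone on the higher side at 1.02 and 0.80.

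The gap between the 2 arrays of a group also entered the rule, since the authors' p-value rests on such gaps in their own values. It is given as a description. Among the 9 clusters it ran from 0.015 to 0.27 on the Bex10 arrays and from 0.024 to 0.17 on the Ctrl arrays. On the Ctrl arrays the one numbered 2 was the lower in 6 of the 9 clusters, beside 48.2% of all clusters. On the Bex10 arrays the one numbered 2 was the higher in 3 of the 9, beside 50.9% of all clusters. With 2 arrays per group these gaps allow no test.

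Likeness between genes was taken as the Euclidean distance over the 4 arrays, each cluster centred on its own mean, to the 536 other clusters with 1 symbol in the authors' deposited table. The nearest cluster to Fkbp5 was Mcm6, at 0.088, and the nearest to Tsc22d3 was 2810417H13Rik, at 0.039. Sgk1 was nearest to Dagla and Tmem45a, Anxa1 to Pdgfrl and Arhgap24, and Txnip to Pknox2 and Smpdl3b. The brighter Glul cluster was nearest to Usp54 and Gstm1, the other Glul cluster to Col4a1 and Tns1, and Errfi1 to D0H4S114 and Syt12. Second for Fkbp5 was Cdc42ep5 and second for Tsc22d3 was Col4a2, while Ddit4 was nearest to Dgke and Slc5a3. These distances ran from 0.015 to 0.111, and a small one means only a difference of like size and a like gap between replicates on 4 arrays.

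A list of 50 other genes that glucocorticoids are known to induce had 13 in the authors' deposited table, 5 higher and 8 lower with Bex. The other 37 carry no name here. limma called 0 of the 13 at an adjusted p of 0.05, and with the variance trend 7 passed, 3 higher and 4 lower, where 1.20% of all clusters passed (0.762% higher and 0.439% lower). The median log2 difference of the 13 was −0.64. Every listed gene, here and below, had to pass the authors' cutoff on these same 4 arrays to be named. That cutoff largely fixes which genes pass, so nothing is read from the share that passed or from the median. The directions of the 13 were mixed, as the plot of the glucocorticoid lists shows. From here on, passing means passing with the variance trend, and it rests on all 4 arrays: over every list used here 20 of 34 named genes passed, against 0 without either Ctrl array, 1 without the Bex10 array numbered 1 (Orm1) and 2 without the Bex10 array numbered 2 (Orm1 and Saa3). In those fits 1 group is a single array that is assumed to vary like the other group.

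Orm1 and Saa3, secreted acute-phase proteins made on glucocorticoid and cytokine signals, had the greatest sizes of difference in that list. Orm1 read 7.81 and 7.58 on the Bex10 arrays, against 10.15 and 10.15 on the Ctrl arrays (log2 difference −2.46 ± 0.11). Saa3 read 6.99 and 7.65 on the Bex10 arrays, against 9.77 and 9.67 on the Ctrl arrays (−2.40 ± 0.25). Both passed. Both belong to gene families, and which family member each cluster measures was not checked. Sesn1, a stress-induced brake on mTORC1 (−0.88 ± 0.11), and Zfp36l2, an RNA-binding protein that destabilises transcripts (−0.64 ± 0.09), also passed as lower. Cebpd (−0.60), Timp3 (−0.73), Mertk (−0.73) and Fbxo32 (−0.74) had negative differences that did not pass.

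On the higher side of the list, Lpin1, a phosphatidate phosphatase, read 8.05 and 7.92 on the Bex10 arrays, against 6.61 and 6.45 on the Ctrl arrays (1.46 ± 0.10). Tgm2, a transglutaminase (1.12 ± 0.14), and Angptl4, a secreted inhibitor of lipoprotein lipase (0.95 ± 0.09), passed too. Lpin1 and Angptl4 are also known targets of PPARs, and Tgm2 of retinoic acid receptors. Whether those receptors act on these genes here was not tested. The muscle growth inhibitor Mstn (1.07 ± 0.19) and the atrophy ligase Trim63 (0.79 ± 0.10) had positive differences that did not pass. Trim63 and Fbxo32, the pair of ubiquitin ligases best known from glucocorticoid atrophy, thus had differences of opposite sign.

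Of 22 listed genes that glucocorticoids repress, 3 were in the authors' deposited table. Ptgs2, the inducible cyclooxygenase, was higher at 9.66 and 9.75 on the Bex10 arrays, against 8.17 and 8.48 on the Ctrl arrays (1.38 ± 0.14), and passed. The chemokine Cxcl5 (−0.63 ± 0.09) passed as lower, and Cxcl12 (−0.74 ± 0.12) did not pass. None of 18 genes for the receptor, its chaperones, coregulators and hormone-converting enzymes was in that table, so the level of the receptor gene Nr3c1 was not analysed here.

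**Figure D3:**
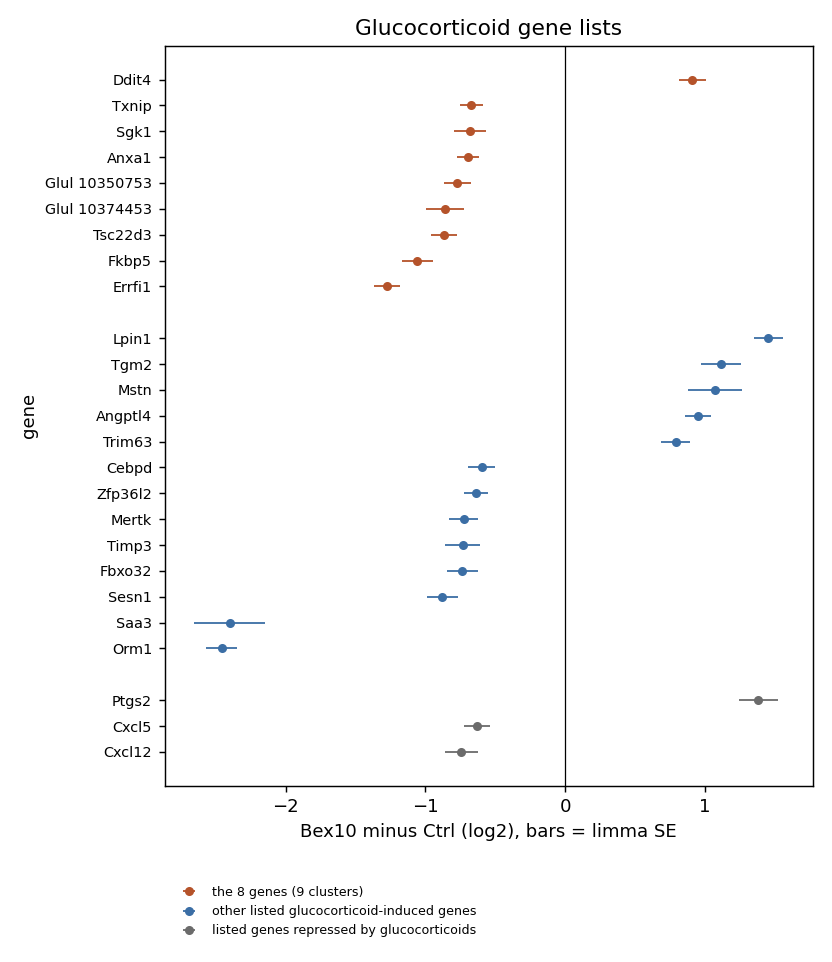
Bex10 minus Ctrl (log2, horizontal axis; bars are limma's SE, n = 2 per group) for the 9 clusters of the 8 genes, the 13 other glucocorticoid-induced genes and the 3 repressed genes in the authors' table. All points come from rows past the authors' cutoff. Orm1 and Saa3 lie near −2.46 and −2.40 and Lpin1 at 1.46.

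The partners of single members gave a further view. In a list of 23 genes of the EGF receptor family and its feedback on MAP kinases, 3 others besides Errfi1 were in the authors' deposited table, all with positive differences. Ereg, the ligand epiregulin, read 7.79 and 7.77 on the Bex10 arrays, against 6.71 and 6.47 on the Ctrl arrays (1.19 ± 0.12). Spry1, a feedback inhibitor of receptor tyrosine kinases (1.13 ± 0.08), and Dusp4, a phosphatase that inactivates MAP kinases (1.00 ± 0.11), stood beside it. All 3 passed with the variance trend and 0 passed without it. Errfi1, which inhibits the receptors that epiregulin binds, thus differed in the opposite direction to these 3 genes.

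In a list of 22 genes of glutamine and glutamate metabolism, 2 besides Glul were in the table. Slc1a5, a transporter that brings glutamine into the cell, read 9.17 and 9.12 on the Bex10 arrays, against 7.91 and 8.31 on the Ctrl arrays (1.04 ± 0.17), and did not pass. Gpt2, the mitochondrial alanine aminotransferase, differed by 0.59 ± 0.09 and passed. Both had the opposite sign to the synthetase.

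In a list of 22 brakes on mTORC1 and stress-linked genes, 5 besides Ddit4 were in the table, 3 higher and 2 lower, and 3 passed. Chac1, which degrades glutathione and is a target of the stress factor ATF4, was higher at 10.53 and 10.62 on the Bex10 arrays, against 9.57 and 9.49 on the Ctrl arrays (1.04 ± 0.09). Vegfa, an angiogenic factor that hypoxia and ATF4 induce, was higher too (0.77 ± 0.08). Trib3, a pseudokinase target of ATF4 (0.67 ± 0.10), did not pass. Sesn1 was lower, as given above, and Deptor, a binding inhibitor of mTOR, differed by −0.64 ± 0.10 without passing. Ddit4 therefore shared its direction with Chac1, Vegfa and Trib3 and not with Sesn1 and Deptor.

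Of 24 targets of FoxO factors, which glucocorticoids and low insulin activate, 3 besides Txnip were in the table, namely Sesn1, Fbxo32 and Trim63, with the values above. Only Sesn1 passed. No other member of the FKBP, TSC22, annexin or thioredoxin lists was in it.

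**Figure D4:**
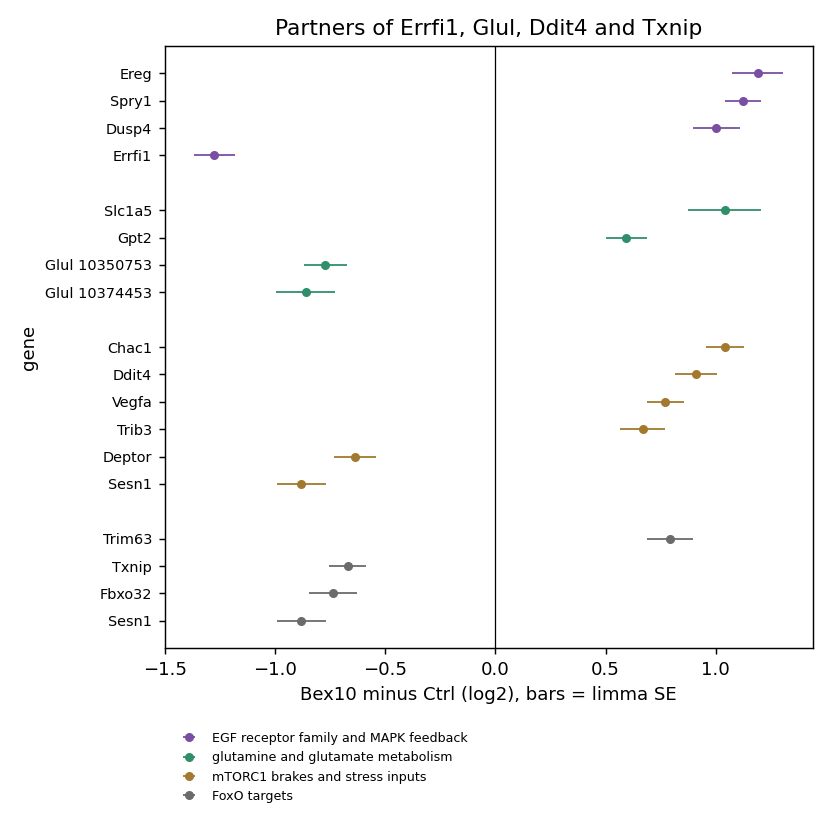
Bex10 minus Ctrl (log2, horizontal axis; bars are limma's SE, n = 2 per group) for Errfi1, Glul, Ddit4 and Txnip, each with the genes of its list that are in the authors' table. Errfi1 lies at −1.27 opposite Ereg, Spry1 and Dusp4, both Glul clusters lie opposite Slc1a5 and Gpt2, and Ddit4 lies at 0.91 beside Chac1.

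Few markers of cell state were named, each because its row is past the authors' cutoff, and limma called 0 of them without the variance trend. The 3 of 14 adipocyte markers in the authors' deposited table, Pparg, Fabp4 and Plin1, had a summed linear level of 1547 and 1726 on the Bex10 arrays, against 421 and 370 on the Ctrl arrays, and all 3 passed with the trend. The 4 of 16 myoblast and myotube markers in it, Myh3, Myh8, Ckm and Pax7, summed to 4776 and 3971 on the Bex10 arrays, against 2966 and 2671 on the Ctrl arrays. Of these, 2 passed, Pax7 as lower (−0.60 ± 0.08) and Myh8 as higher (2.06 ± 0.17), while Myh3 and Ckm had positive differences that did not pass. The lowest value of the 4 on any array was 6.09. The macrophage marker Cd14, the only one named of 10, summed to 173 and 176 on the Bex10 arrays, against 81.8 and 107 on the Ctrl arrays, without passing, and none of 8 endothelial markers was named. The part of these markers in the values of the 8 genes was not tested. In bulk RNA, fewer cells of a type and less RNA per cell cannot be told apart.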

How the data were processed

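RNA from 4 samples of C2C12 cells was measured on Affymetrix Mouse Gene 1.0 ST arrays after amplification and biotin labelling, per the labels. The authors deposited log2 values that per the labels came from RMA over core exons (Affymetrix Expression Console), and a table of 559 clusters for which the submitters' processing notes name Transcriptome Analysis Console. Per the file headers, that deposited table holds log2 averages per group, a fold change written as a signed score (negative where Bex was lower), and p-values from ANOVA before and after FDR adjustment. Neither version nor genome build is given in the sources used. RMA gives all arrays like distributions, which hides any change common to most transcripts.

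Arrays were grouped by title. Bex10 minus Ctrl was fitted over all 35557 clusters with limma 3.58.1 in R 4.3.3 (lmFit, eBayes, no covariates), with Benjamini-Hochberg adjustment at 0.05; printed errors are its standard errors. The variance-trend fit was an alternative. Array medians were 5.76 to 5.80, and the number of arrays limits the precision. Names came from the authors' deposited table alone, in which 545 rows had 1 symbol. The members and lists were chosen with earlier results of these data known. All members, all listed genes in that table and the 2 nearest clusters in pattern per member cluster were named, except 1 listed gene that is not reported here. Same-numbered arrays did not deviate together (Pearson's r across clusters of the differences between replicates of the groups, 0.00786), so the numbers were not taken as pairs. Fits and motif searches were tested on simulated data. Python 3.11.15 with pandas 2.3.3, numpy 2.4.6 and matplotlib 3.10.9 made the lists and plots. Alternatives were a replicate block, the variance trend, repeated normalization, a median shift, leaving out dim clusters or single arrays, other thresholds, the authors' averages and a mismatch in motifs.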

Additional observations from a re-analysis of the deposited data

How the results depend on the processing

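The median log2 difference of the 8 genes was −0.735 as reported. It lay between −0.745 and −0.709 after repeated quantile normalization, after a median shift and with the authors' averages. The replicate block leaves each difference unchanged by arithmetic (−0.735), so it is no check of these values. With single arrays left out the median ran from −0.797 to −0.709. Of 64 values for single genes over 8 alternatives, the replicate block included, all 64 had the reported sign. The selection of the genes largely fixes that sign. Of the 64, 1 moved by more than the replicate SD pooled over both groups, Ddit4 with the authors' averages (0.82). At this group size, leaving out a single array cannot by arithmetic move a difference by more than that SD. The values with an array left out and those of the replicate block are therefore no check by this measure. Only the values from the rescalings and the authors' averages were free to move by more. The groups of all 8 genes stayed apart after both rescalings.

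The count of clusters called over the array was 0 as fitted, and 0 with the replicate block, after both rescalings and with each array left out. It was 427 with a variance trend, 105 without the lowest 30% of clusters, 80 at an adjusted p of 0.1 and 2292 at 1.5-fold with no test. Among settings chosen after the data were seen, it was 297 after 6669 clusters were left out whose ID numbers are lower than any in the authors' deposited table, 158 with trend and replicate block, where 10 of the 34 listed genes passed against 20 without the block, and with the trend 0 without either Ctrl array, 23 without Bex10 replicate 1 and 32 without Bex10 replicate 2. The same numbers were not taken as pairs, so calls lost under the block are not read as weaker. Allowing 1 mismatch, the windows with a match became 16 for TGTTCT and 16 for AGGTCA, where 91.2% and 92.6% of all windows match. The E-box then matched in 6 of the 16 windows (37.5%), beside 63.6% of all windows. The palindrome stayed at 1 window, beside 0.164% of all windows. With 2 arrays per group, small differences cannot be separated from the spread between arrays.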
